A study of Mus musculus with 82 samples.

Results

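The Snail, Zeb and Twist genes encode the transcription factors best known for driving the epithelial-mesenchymal transition, in which cells of an epithelial sheet lose their junctions and become motile. The group held 5 genes, Snai1, Snai2, Zeb1, Zeb2 and Twist1, out of 21887 protein-coding genes of the mouse annotation. The measurement was where 2 T-box factors, Eomes and Brachyury, sat around these genes. Peaks of 4 deposited chromatin immunoprecipitation (ChIP-seq) lists were assigned to a gene when their midpoint lay within 50 kb of its span in GRCm38 (mm10). Among 30129 peaks in the EoGFP list, 20 met that rule. It was met by 19 of 27588 BraGFP peaks, 19 of 38193 EoV5 peaks and 34 of 36203 EoVP16 peaks.

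All 4 lists came from mouse embryonic stem cells of the A2lox.Cre line that lack both Eomes and Brachyury (dKO), a deletion shared by every group used here. The cells grew as embryoid bodies, floating aggregates that differentiate, and were collected at day 5 after ActA (Activin A, 30 ng/ml) and doxycycline (dox) from day 2. Doxycycline switched on 1 construct per line: EoGFP or BraGFP, precipitated with an antibody to GFP (2 libraries each), or EoV5 or EoVP16, precipitated with an antibody to V5 (1 library each). VP16 is a viral activation domain in common use for fusions with transcription factors. Factor levels were therefore those of an induced construct and not of the endogenous gene. The libraries belonged to a series of 82 samples, with 66 RNA-seq, 12 ChIP-seq and 4 ATAC-seq samples. The uninduced ChIP libraries and the RNA-seq samples were not analysed here, so nothing below is about transcript levels.

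Each construct was represented by a single peak list, with no value per library. No difference between lists had a replicate check or a test, and read depth was not known. Intervals given below cover counting error only (exact Poisson for counts, Wilson for shares, both at 95%). The lists also had different thresholds: the lowest peak height was 61 in EoV5 and 36 in EoVP16. The GFP lists held positions without heights, and their names give a minimum pileup of 120 for EoGFP and 40 for BraGFP, a gap that touches every comparison of those lists. A gene without a peak in a list is a gene with no peak above that list's threshold.

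Snai1 and Snai2 (Slug) are zinc finger repressors that bind E-boxes, short sites such as CAGGTG, and switch off Cdh1, the E-cadherin gene. Zeb1 and Zeb2 are larger zinc finger and homeodomain factors that bind the same kind of site. Twist1 is a basic helix-loop-helix factor that pairs with E proteins. In the gastrulating mouse embryo Snai1 is needed for cells to leave the primitive streak as mesoderm, and Eomes and Brachyury are the T-box factors that act in those same streak cells. Eomes is known to be required for the transition itself, since cells without it pile up in the streak.

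The promoters of 3 of the genes differed in how far the peaks covered them. RefSeq (GRCm38.p6) gave the 250 bases before the start for Snai1 (chr2:167537945-167538194, plus strand), Zeb2 (chr2:45117443-45117692, minus strand) and Twist1 (chr12:33957421-33957670, plus strand). Snai2 and Zeb1 had no entry. Each sequence is written 5′ to 3′ and ends at the base before the transcription start. They are shown because the lists treated these 3 starts in 3 different ways. Capitals mark the E-box in Snai1 and, in Zeb2, the bases under the BraGFP peak; Twist1 has none.
Snai1: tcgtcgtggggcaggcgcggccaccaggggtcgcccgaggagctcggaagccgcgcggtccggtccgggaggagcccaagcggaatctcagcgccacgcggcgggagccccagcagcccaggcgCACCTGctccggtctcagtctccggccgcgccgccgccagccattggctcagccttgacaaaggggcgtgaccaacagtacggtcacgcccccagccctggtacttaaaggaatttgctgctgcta
Zeb2: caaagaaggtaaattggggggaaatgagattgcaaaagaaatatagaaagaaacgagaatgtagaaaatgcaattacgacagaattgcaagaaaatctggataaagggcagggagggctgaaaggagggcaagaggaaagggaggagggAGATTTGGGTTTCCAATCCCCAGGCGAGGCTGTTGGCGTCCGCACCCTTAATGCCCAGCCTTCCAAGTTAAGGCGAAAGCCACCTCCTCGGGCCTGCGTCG
Twist1: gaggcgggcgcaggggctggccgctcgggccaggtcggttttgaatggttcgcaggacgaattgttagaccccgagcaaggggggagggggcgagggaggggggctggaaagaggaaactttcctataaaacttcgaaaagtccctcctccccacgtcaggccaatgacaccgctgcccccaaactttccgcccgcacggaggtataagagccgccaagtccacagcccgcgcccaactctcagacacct
All 250 bases of the Snai1 window lay under EoGFP, EoV5 and EoVP16 peaks, and none lay under a BraGFP peak. The Zeb2 window was covered over all 250 bases by EoV5 and EoVP16 and over the 101 bases nearest the start by BraGFP, while the EoGFP peak ended inside the gene. RefSeq lists 4 starts for Zeb2, of which the outermost is printed. Of the windows before the other 3, lying inside the gene, 1 had 124 bases under an EoV5 peak and the rest had no base under a peak of any list. No base of the Twist1 window lay under a peak of any of the 4 lists.

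These windows were searched on both strands for the T-box site TCACACCT, for its shorter core TCACAC and for the E-box CAGGTG. The core is contained in the longer T-box site, so a match of that site is also one of the core. The single match was the E-box in the Snai1 window, read as CACCTG on the printed strand, from 126 to 121 bases before the start. Of 32851 RefSeq mouse promoter windows of the same length, 17.2% held this E-box, 12.3% held TCACAC and 1.12% held TCACACCT. No match says only that these letters are not in these windows.

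Peak counts differed strongly between the 5 genes. Zeb2 held 9 EoGFP, 11 BraGFP, 11 EoV5 and 18 EoVP16 peaks within 50 kb. Snai1 held 7 EoGFP, 4 BraGFP, 5 EoV5 and 11 EoVP16 peaks. The other genes were sparse: Snai2 had 1 peak in each list, Zeb1 had 1, 3, 1 and 2 in the same order of lists, and Twist1 had 2, 0, 1 and 2. Zeb2 alone accounted for 45% of the EoGFP peaks of the group, 57.9% of the BraGFP and EoV5 peaks and 52.9% of the EoVP16 peaks.

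**Figure D1:**
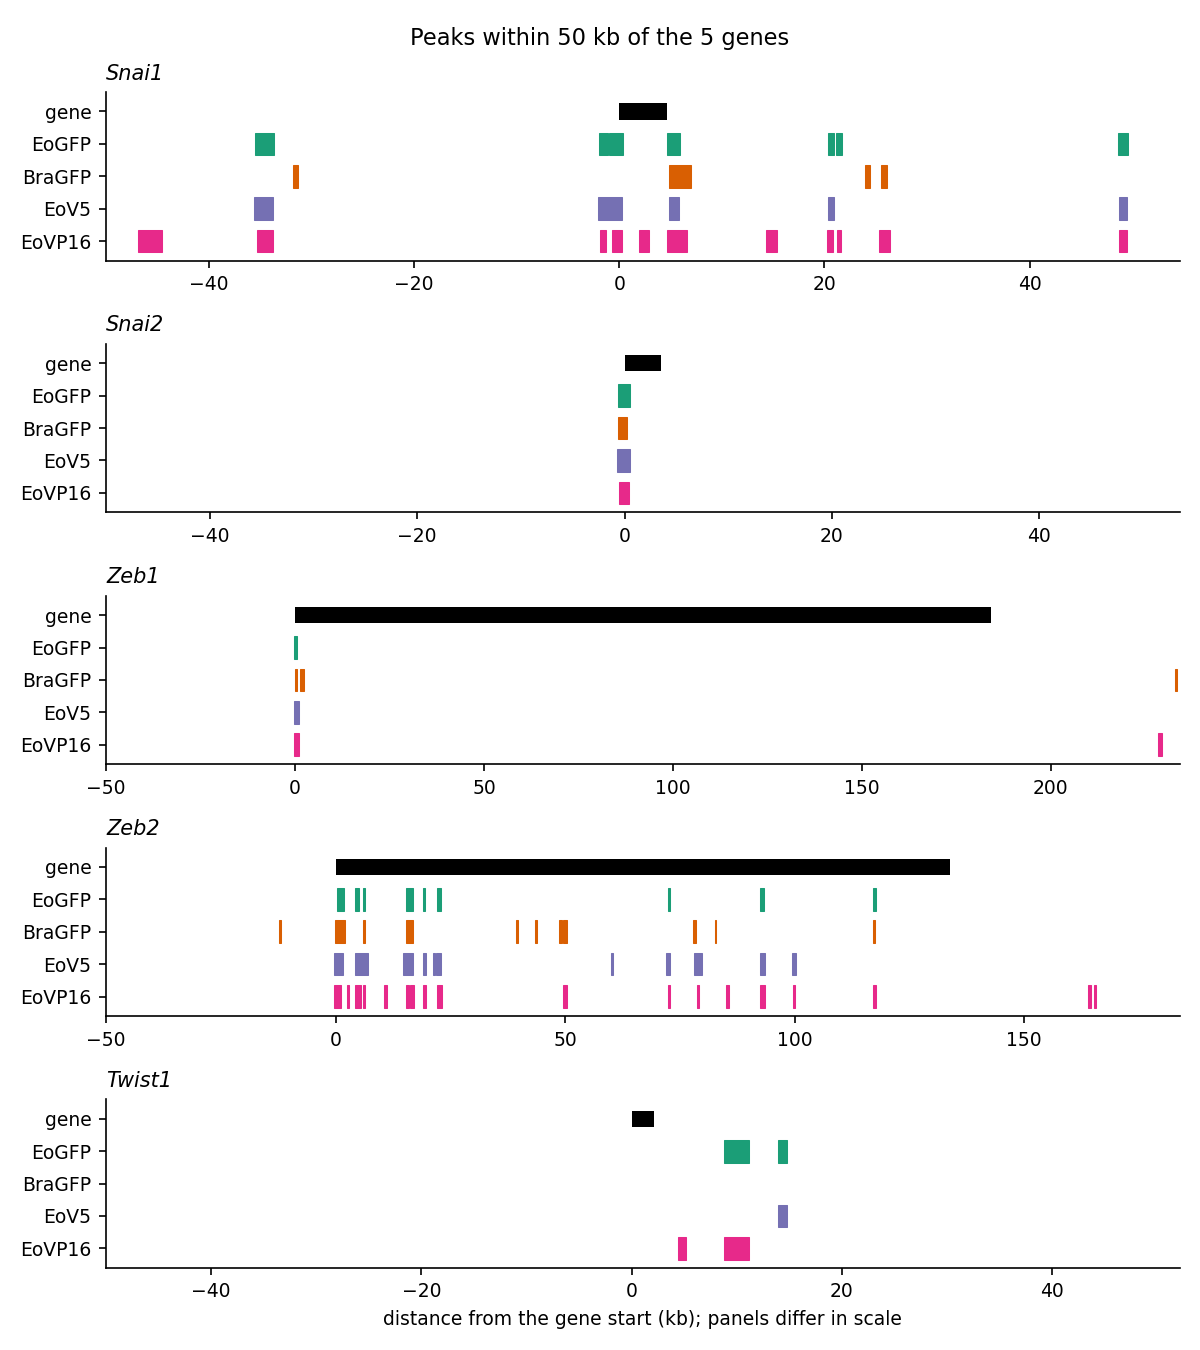
Peaks (coloured bars, one row per list) around each gene (black bar), against distance from the gene start in kb along the direction of transcription; each panel spans the gene and 50 kb on either side, peaks are drawn to scale apart from a thin outline, and the start of Snai2 and Zeb1 is their lower-coordinate end. Peaks crowd the first part of Zeb2, flank Snai1 on both sides, and stand over the starts of Snai2 and Zeb1 with almost nothing else in view.

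The presence of a peak within 50 kb was itself ordinary. Of all coding genes, 81.1% had at least 1 EoGFP peak within that distance, 76.5% a BraGFP peak, 83.0% an EoV5 peak and 84.2% an EoVP16 peak. Here 5 of 5 genes had one in the EoGFP, EoV5 and EoVP16 lists and 4 of 5 in the BraGFP list, Twist1 being the exception. The density of peaks says more, because the windows run from 102 kb (Twist1) to 284 kb (Zeb1).

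Snai1 (chr2:167538195-167542814, 4620 bp) had the highest density of the 5 in the EoGFP, EoV5 and EoVP16 lists. It carried 6.69 EoGFP peaks per 100 kb of window, against a median of 1.86 over coding genes, and 3.00% of coding genes had at least that density. Its EoVP16 density of 10.5 per 100 kb stood against a median of 2.33, and 0.827% of coding genes reached it. The BraGFP density, 3.82, and the EoV5 density, 4.78, were reached by 8.70% and 9.58% of coding genes.

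Zeb2 (chr2:44983512-45117442, 133.9 kb) had 3.85 EoGFP, 4.70 BraGFP, 4.70 EoV5 and 7.70 EoVP16 peaks per 100 kb. These densities were reached by 19.0%, 4.22%, 10.4% and 4.38% of coding genes in turn. In the BraGFP list Zeb2 passed Snai1, which put it first of the 5 there. In each list the counting intervals of Snai1 and Zeb2 overlapped, so their order is not settled. As plain counts its 18 EoVP16 and 11 BraGFP peaks were reached by 0.224% and 0.786% of coding genes, but a long gene has a long window.

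Zeb1 (chr18:5591327-5775468, 184.1 kb) is longer than Zeb2 and had far fewer peaks. Its densities were 0.352 (EoGFP), 1.06 (BraGFP), 0.352 (EoV5) and 0.704 (EoVP16) per 100 kb, and between 54.8% and 82.6% of coding genes reached them. Snai2 (chr16:14705852-14709395, 3544 bp) stood at 0.966 in every list, reached by 58.7% to 72.8% of coding genes. Twist1 (chr12:33957671-33959831, 2161 bp) had 1.96 EoGFP and EoVP16 peaks per 100 kb and 0.979 EoV5 peaks, each reached by 46.5% or more of coding genes. The Poisson intervals of the counts at Snai2, Zeb1 and Twist1 overlap one another in each list, so no order among these 3 can be read.

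**Figure D2:**
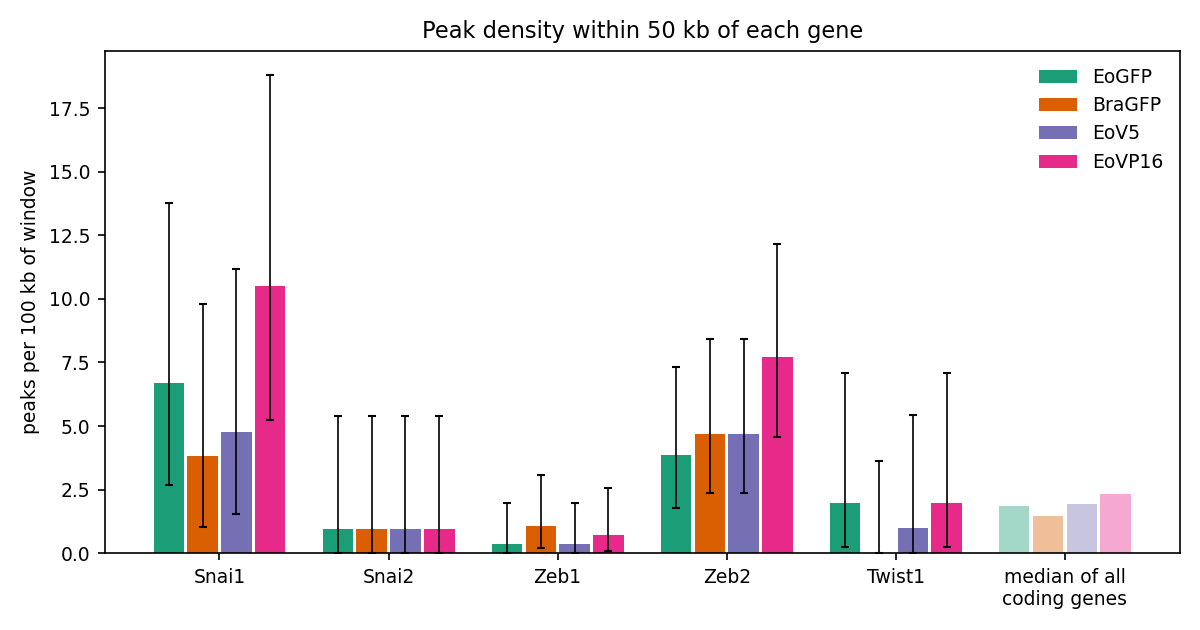
Peaks per 100 kb of the window (gene plus 50 kb on each side) for each gene and list, with exact 95% Poisson intervals as error bars, beside the median over all coding genes (pale bars). Snai1 and Zeb2 lie above the median in all 4 lists, while Snai2 and Zeb1 lie below it in all 4.

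Taken over the summed 828.4 kb of the 5 windows, EoGFP peaks came at 2.41 per 100 kb (interval 1.48 to 3.73), BraGFP and EoV5 peaks at 2.29 (1.38 to 3.58) and EoVP16 peaks at 4.10 (2.84 to 5.74). The same pooled density over the windows of all coding genes was 2.04, 1.59, 2.13 and 2.51 in the order EoGFP, BraGFP, EoV5 and EoVP16. The first 3 of these lay inside the intervals of the 5 genes, and the EoVP16 value lay below its interval. The medians over the 5 genes themselves were 1.96, 1.06, 0.979 and 1.96, and the medians over coding genes were 1.86, 1.46, 1.92 and 2.33. Zeb2 and Snai1 supplied most of the pooled density: without Zeb2, 11 EoGFP, 8 BraGFP, 8 EoV5 and 16 EoVP16 peaks were left. The 233.9 kb window of Zeb2 drops out with its peaks, so these counts stand over a shorter length. Densities and intervals without Zeb2 were not computed, so the higher EoVP16 density is shown only with Zeb2 included. When each list was cut to its 13000 widest peaks, the 5 windows held 8 EoGFP, 8 BraGFP, 10 EoV5 and 12 EoVP16 peaks. At Zeb2 the EoVP16 count then fell below that of EoV5, with 3 against 6.

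Where the peaks lay relative to the gene body also separated the 5. All 9 EoGFP and all 11 EoV5 peaks of Zeb2 had their midpoint inside the gene, as did 10 of 11 BraGFP and 16 of 18 EoVP16 peaks. Per 100 kb of gene this came to 6.72, 7.47, 8.21 and 11.9 peaks in the order EoGFP, BraGFP, EoV5 and EoVP16. Zeb1 had 1, 2, 1 and 1 peaks inside, or 0.543 to 1.09 per 100 kb of gene. Snai1 had a single peak inside, from EoVP16, and Snai2 and Twist1 had none in any list. Over all coding genes, 45.1% had a midpoint of an EoGFP peak inside the gene, 35.4% a BraGFP, 42.0% an EoV5 and 51.7% an EoVP16 midpoint. Those shares cover genes of every length. Pooled over the length of all coding genes, peaks inside came at 1.69, 1.54, 1.97 and 2.03 per 100 kb in the same order. Snai1 (4620 bp), Snai2 (3544 bp) and Twist1 (2161 bp) are so short that few or no peaks inside are unremarkable.

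Peaks over a gene end gave another picture, because Snai2 and Zeb1, poor in peaks, had one in every list. Of the 5 genes, 3 had an EoGFP peak over either end, against 36.0% of coding genes. There were 3 with a BraGFP peak (18.6% of coding genes), 4 with an EoV5 peak (28.6%) and 4 with an EoVP16 peak (46.5%). Snai2 and Zeb1 were the 2 with such a peak in all 4 lists, which 12.7% of coding genes had. Snai1 lacked the BraGFP peak, Zeb2 lacked the EoGFP peak, and Twist1 lacked all of them. With 5 genes these counts are a description.

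At the Snai1 start the peaks came from the Eomes constructs alone. Upstream and over the start lay an EoV5 peak of 2354 bp (chr2:167536147-167538500) with a height, the largest number of overlapping fragments, of 335. It was the tallest EoV5 peak of the group and taller than 93.3% of its list, where the median height was 99. EoGFP and EoVP16 each had 2 peaks in the same stretch, and the EoVP16 peaks reached 76 and 89. No BraGFP peak overlapped any of them.

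Just past the 3′ end of Snai1 came the only site of this gene that all 4 lists held (chr2:167542834-167545237). The BraGFP peak there was 2232 bp wide, wider than 99.0% of BraGFP peaks and the widest of the 19 at these genes. EoV5 reached 98 and EoVP16 reached 100 at the same place. The start of Snai1 was thus listed for the Eomes constructs without Brachyury, and the 3′ flank for both.

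Farther out, sites with EoGFP, EoV5 and EoVP16 together lay 34.6 kb before the Snai1 start and 20.6 and 49.1 kb after it, with EoV5 heights of 175, 131 and 196. The other 3 BraGFP peaks of Snai1 lay at 31.5 kb before and at 24.2 and 25.8 kb after the start, and overlapped no EoGFP or EoV5 peak. One of them, at 25.8 kb, overlapped an EoVP16 peak of height 71. Some of the outer peaks lay closer to another coding gene: 2 of 7 EoGFP, 1 of 4 BraGFP, 2 of 5 EoV5 and 3 of 11 EoVP16 peaks were nearer to Rnf114, Ube2v1 or Spata2.

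Snai2 had the simplest pattern, a single site over its start (chr16:14705081-14706394) that all 4 lists held. The midpoints of the 4 peaks lay between 0.05 and 0.172 kb outside the gene span, at its lower-coordinate end. EoV5 reached 98, just under its list's median of 99. EoVP16 reached 103, above 90.4% of its list. No second peak of any list lay within 50 kb.

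Zeb1 likewise had one site held by all 4 lists, over its lower-coordinate end (chr18:5590989-5592371), with an EoV5 height of 72 and an EoVP16 height of 103. A second BraGFP peak followed 1.81 kb into the gene and overlapped no peak of the Eomes constructs. The remaining peaks, 1 from BraGFP and 1 from EoVP16 (height 49), lay more than 44 kb beyond the far end. No peak of any list had its midpoint between 1.81 kb from the Zeb1 start and the far end of the gene.

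Zeb2 was occupied along its length, with 23 joined sites, a joined site being a run of peaks from any list that overlap by at least 1 base. The gene was divided into 4 equal stretches of 33.5 kb, counted from the start. The first held 6 of 9 EoGFP, 6 of 11 EoV5 and 9 of 16 EoVP16 peaks inside the gene. Only 3 of the 10 BraGFP peaks fell in that stretch and 4 fell in the second, where EoGFP had none and EoV5 and EoVP16 had 1 each. The third stretch held 2, 2, 4 and 5 peaks in the order EoGFP, BraGFP, EoV5, EoVP16, and the last held 1, 1, 0 and 1. The 2 EoVP16 peaks outside the gene lay past its 3′ end and were nearer to Gtdc1.

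The 3 Zeb2 sites held by all 4 lists lay near the start. The first spanned it (chr2:45115488-45117877), with a BraGFP peak of 2056 bp, wider than 98.6% of its list, and heights of 168 for EoV5 and 105 for EoVP16. The second lay 5.62 kb into the gene, under a 2821 bp EoV5 peak of height 164. At the third, 15.9 kb in (chr2:45100437-45102656), EoV5 reached 295 while the 2 EoVP16 peaks reached 43 and 45. Sites with EoGFP, EoV5 and EoVP16 but not BraGFP followed at 19.3 and 22.6 kb, with EoV5 heights of 148 and 245, and again at 72.4 and 93.0 kb, with 118 and 124.

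From 39.5 to 50.0 kb into Zeb2 lay the midpoints of 4 BraGFP peaks with no EoGFP or EoV5 peak among them. One of these sites (chr2:45067079-45067879) also held an EoVP16 peak of height 190, the tallest EoVP16 peak of the group and above 98.4% of its list. Of 584 EoVP16 peaks genome-wide at least that tall, 5 overlapped no EoV5 peak, which is 0.856% (interval 0.366 to 1.99%). All 5 overlapped a BraGFP peak, and 2 of them, this one included, overlapped no EoGFP peak. A second tall EoVP16 peak without EoV5 lay 117 kb into Zeb2 with height 112, over both an EoGFP and a BraGFP peak. Of 2761 EoVP16 peaks at least as tall as that, 47 (1.70%) lacked EoV5, and 26 of these 47 (55.3%) overlapped a BraGFP peak. Over the whole EoVP16 list 25.7% of peaks overlapped a BraGFP peak. The share among all equally tall EoVP16 peaks was not computed, so these overlaps have no matched baseline. The 2 tall Zeb2 peaks were singled out after their heights were seen.

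Twist1 had no peak over or inside it in any list, and all of its peaks lay on the 3′ side. A 2343 bp EoGFP peak (chr12:33966495-33968837), wider than 98.0% of its list, lay 7.84 kb past the gene over a 2325 bp EoVP16 peak of height 67. No EoV5 peak overlapped it, although EoV5 and EoGFP are both Eomes constructs. EoV5 and EoGFP shared the next site instead, 14.3 kb from the start, where EoV5 reached 144. The third was an EoVP16 peak of height 36, the lowest in that list, 2.64 kb past the gene. The nearest BraGFP peak lay 84.3 kb from the gene.

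Joining the lists gave 43 sites at the 5 genes: 12 at Snai1, 1 at Snai2, 4 at Zeb1, 23 at Zeb2 and 3 at Twist1. All 4 lists held 6 of them (14.0%, interval 6.56 to 27.3%), and 8.30% of 71918 joined sites in the genome, a share inside that interval. With the wider or taller 50% of each list, 1 of 25 sites (4.00%) was held by all 4. Of the 6, 3 were at Zeb2 and 1 each at Snai1, Snai2 and Zeb1, and 4 of these 6 sites touched or lay beside a gene end. A single list held 21 sites (48.8%, against 53.1% in the genome). Of the 43 sites, 10 were EoVP16 alone (23.26%, against 13.58% in the genome). BraGFP alone held 9 (20.93%, against 23.02%) and EoV5 alone held 2 (4.651%, against 14.47%). No site was EoGFP alone, but only 2.027% of genome sites were, so this absence among 43 sites says little. Intervals were not computed for these single-list shares.

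The lists were then compared by overlap of their peaks. EoGFP peaks at these genes overlapped an EoV5 peak in 17 of 20 cases (85.0%, interval 64.0 to 94.8%) and an EoVP16 peak in 19 of 20 (95%, 76.4 to 99.1%). They overlapped a BraGFP peak in 7 of 20 (35.0%, 18.1 to 56.7%). Over the whole EoGFP list the shares were 79.6%, 70.9% and 27.1%. BraGFP peaks overlapped an EoGFP peak in 7 of 19 cases (36.8%), against 29.3% over its list. EoVP16 peaks overlapped an EoV5 peak in 19 of 34 (55.9%, 39.4 to 71.1%), against 56.9% over its list, and EoV5 peaks overlapped an EoVP16 peak in 16 of 19 (84.2%, 62.4 to 94.5%), against 53.1%.

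A difference in number between lists was counted at a gene when one list had at least 1.5 times the peaks of another and at least 3 more. Snai1 had more EoGFP than BraGFP peaks by this rule, as did 20.9% of the coding genes with a peak in either list. With 7 against 4 peaks it met the rule exactly, and the call was lost with nearest genes (5 against 3), a 10 kb window (3 against 1) or the 13000 widest peaks (3 against 2). None of the 5 met the rule for more BraGFP than EoGFP peaks, which 6.93% of coding genes met. Zeb1 (3 BraGFP against 1 EoGFP) and Zeb2 (11 against 9) had more BraGFP peaks but fell short of it. With a 100 kb window Zeb1 met that rule (5 BraGFP against 1 EoGFP). Snai1 and Zeb2 had more EoVP16 than EoV5 peaks, as did 17.4% of coding genes, and none of the 5 had the reverse, found at 5.78%. The call at Zeb2 (18 against 11) was lost with a 10 kb window or with nearest genes (16 against 11 in both). It turned round with the taller 50% of each list (7 against 10), and with the 13000 widest peaks (3 against 6) it met the reverse rule. No member met the rule between EoGFP and EoV5 in either direction in the full lists, while 5.18% of coding genes met it for more EoGFP and 6.94% for more EoV5 peaks. Zeb2 met the rule for more EoV5 than EoGFP peaks in 2 cut lists. These were the taller 50% of EoV5 against the wider 50% of EoGFP (10 against 3) and the 13000 widest peaks (6 against 3).

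The heights of EoV5 and EoVP16 peaks ran differently over the genes. Of the 19 EoV5 peaks, 15 were taller than the list's median of 99, with a range of 72 to 335 and a median of 144. Of the 34 EoVP16 peaks, 17 were taller than the median of 54, with a range of 36 to 190 and a median of 55. At 16 sites held by both lists, most of them at Zeb2, the ratio of the EoVP16 to the EoV5 height had a median of 0.388. Over all 20183 such sites in the genome the median was 0.595 and the quartiles were 0.361 and 0.84, so 0.388 lay between the quartiles. The lowest ratio, 0.153, was at the Zeb2 site 15.9 kb into the gene, at percentile 4.40 of all shared sites. The highest was 1.43 at the Zeb1 start, at percentile 98.7, followed by Snai2 with 1.05 and the 3′ site of Snai1 with 1.02. Each of these 3 sites was also held by BraGFP, and so was the Zeb2 site with the lowest ratio. Heights of the 2 lists were not scaled to each other here, so a ratio is read only against the other sites.

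**Figure D3:**
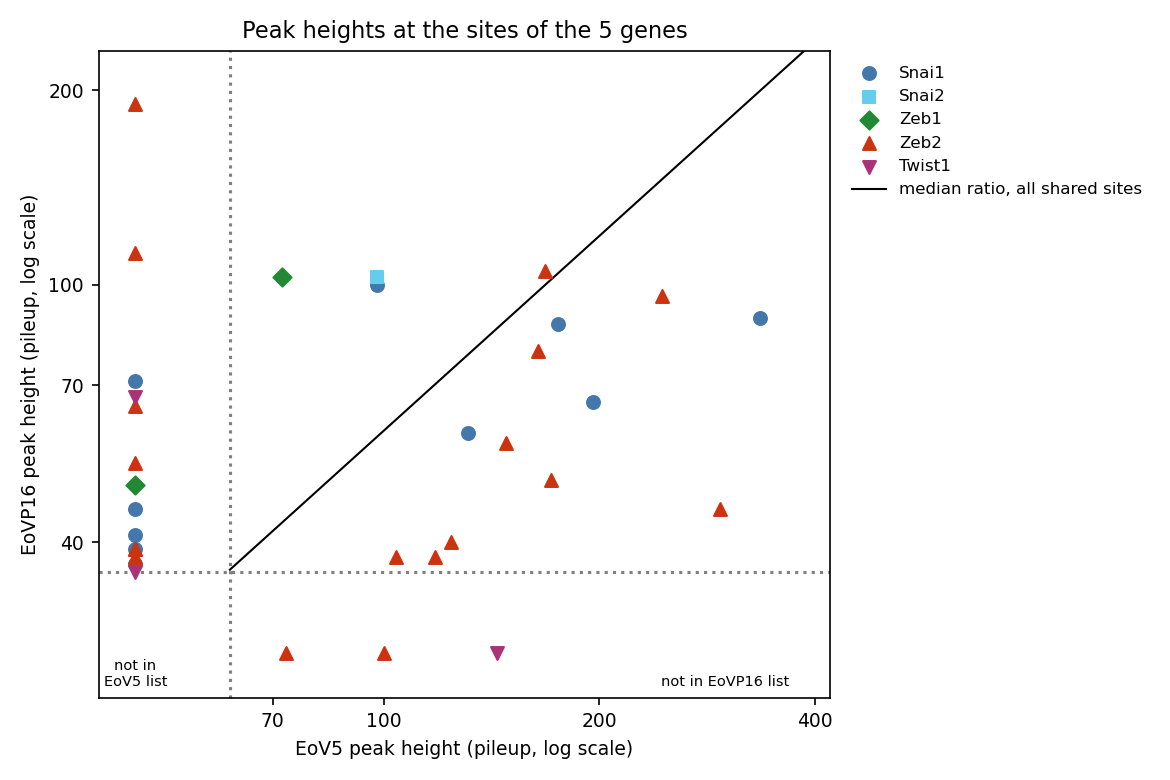
Height of the EoVP16 peak against that of the EoV5 peak (pileup, both axes logarithmic) at each site of the 5 genes held by either list, the taller peak where a list had 2; dotted lines are the lowest heights in each list, sites missing from a list are set beyond its line, and the black line is the median ratio over all shared sites. The start sites of Snai2 and Zeb1 lie above the line with heights near 100 in EoVP16, and the tallest EoVP16 peak of Zeb2, at 190, has no EoV5 partner.

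Epithelial genes known as repressed in the epithelial-mesenchymal transition, and mesenchymal genes, were counted from lists chosen for the purpose. Among 19 epithelial genes, such as Cdh1 and the epithelial transcription factor Grhl2, 14 had an EoGFP peak over an end, 17 an EoV5 peak and 17 an EoVP16 peak, but 1 (Dsp, a desmosome gene named after the count was seen) a BraGFP peak. The background shares given above are 36.0%, 28.6%, 46.5% and, for BraGFP, 18.6%. All 19 nevertheless had a BraGFP peak within 50 kb, with a median of 3, against 76.5% of coding genes and a median of 2. Some of the 19 are neighbours with overlapping windows and are not separate observations. Cdh1 had 12 EoGFP, 6 BraGFP, 14 EoV5 and 15 EoVP16 peaks within 50 kb, and Grhl2 had 9, 4, 11 and 14. Among 10 mesenchymal genes, 3 had an EoGFP, 3 a BraGFP, 5 an EoV5 and 8 an EoVP16 peak over an end. Cdh2 (N-cadherin) had 9, 10, 14 and 7 peaks within 50 kb, and Mmp14, a membrane-bound matrix protease, had 5, 4, 3 and 9. Cdh1, Grhl2, Cdh2 and Mmp14 were named for having the most peaks of their lists. Their counts are not set per length, and Cdh2 is a long gene (chr18:16588877-16809246).

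**Figure D4:**
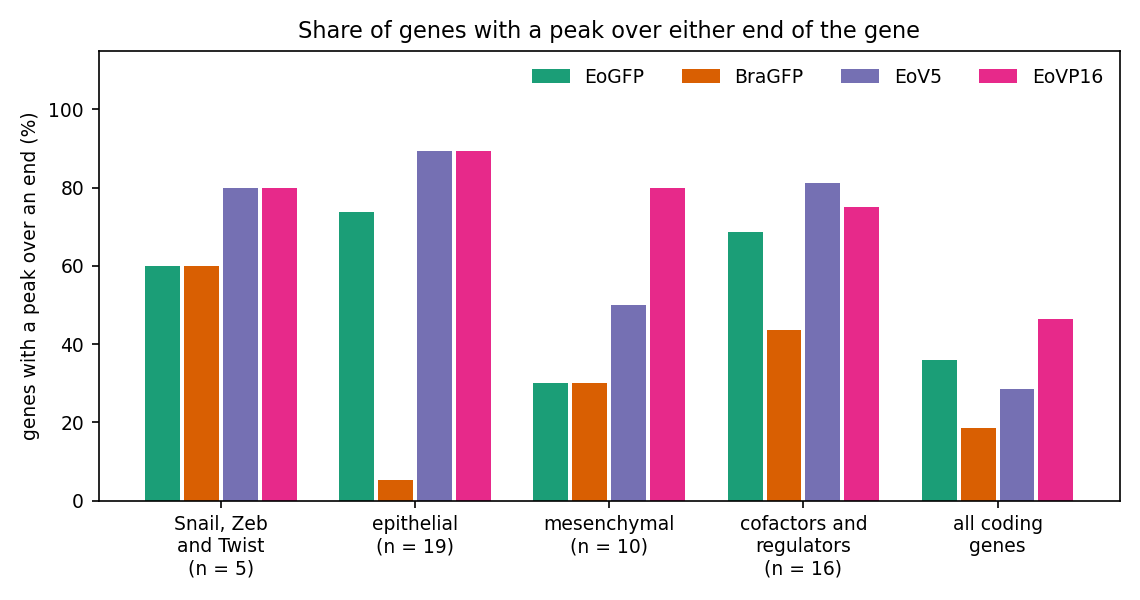
Percent of genes with a peak over either end, by list (colours), for the Snail, Zeb and Twist genes, 3 related gene lists and all coding genes; n is the number of genes. The BraGFP bar is the lowest of the lists for epithelial genes (1 of 19), for cofactors and regulators (7 of 16) and for all coding genes (18.6%). It is level with EoGFP, both lowest, for the Snail, Zeb and Twist genes (3 of 5 each) and for mesenchymal genes (3 of 10 each).

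The partners of these factors made up another list. Of 16 cofactors and regulators, 11 had an EoGFP, 7 a BraGFP, 13 an EoV5 and 12 an EoVP16 peak over an end, against 36.0%, 18.6%, 28.6% and 46.5% of coding genes. In all 4 lists 5 of the 16 had one, against 12.7%. Tcf4, an E protein that pairs with Twist1, had 6, 9, 6 and 7 peaks within 50 kb. Id3, which blocks E proteins, had 8, 7, 5 and 6, and Fbxl14, a ubiquitin ligase subunit known to act on Snail proteins, had 5, 8, 5 and 8. Tcf4, Id3 and Fbxl14 were named for having the most peaks of their list, and their counts are not set per length. The median counts over coding genes were 3, 2, 3 and 3. Of the 4 paralogs, 0 had a BraGFP peak over an end, where 18.6% of coding genes have one, so the count says little. Scrt1 and Scrt2, relatives of Snail in neurons, had 16 peaks each summed over the lists.

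The microRNAs that restrain Zeb mRNAs lie in 2 clusters and were described by their mature sequences, since their seeds (bases 2 to 8, in capitals) set which mRNAs they pair with. RefSeq gave these arms:
miR-200b-3p: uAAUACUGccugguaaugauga
miR-200c-3p: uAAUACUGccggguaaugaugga
miR-429-3p: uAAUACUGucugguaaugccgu
miR-200a-3p: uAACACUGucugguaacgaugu
miR-141-3p: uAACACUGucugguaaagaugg
The first 3 share the seed AAUACUG and the last 2 share AACACUG, and each cluster carries both seeds. The cluster on chromosome 4 (Mir200a, Mir200b and Mir429, named after their counts were seen) had 4 EoGFP, 0 BraGFP, 5 EoV5 and 5 EoVP16 peaks within 50 kb of each of its genes. Among coding genes 76.5% had a BraGFP peak within that distance, so a locus without one is not rare. The cluster on chromosome 6 (Mir200c and Mir141) had 5, 3, 2 and 7. Mir34a, whose microRNA is known to target Snai1, had 4, 4, 6 and 4 peaks. Genes of a cluster share their peaks and are not separate observations.

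For each of the 5, the coding gene with the most similar counts over the 4 lists was found among genes with a window within 20% of the same length, by the summed absolute log2 ratio of counts plus 1. Snai1 was nearest to Usp21 (7, 4, 5 and 10 peaks, summed log2 difference 0.126), 1 of 2 genes tied at that difference and the closer in window length, and Zeb2 to Ccdc162 (9, 10, 13 and 16, difference 0.508). Zeb1 was matched exactly by Shroom2 alone. For Snai2, 176 genes tied with identical counts, and for Twist1, 27 did. The likeness covers 4 lists.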

How the data were processed

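The 5 genes and the gene lists were chosen with earlier results of these data known. The submitters' processing notes name the aligner Bowtie2 (2.3.4), the peak caller MACS2 (2.1.1.20160309.4) and, among other tools, bedtools (2.27.0), SAMtools (1.3.1) and Picard (1.56.0). The control for peak calling and the way 2 GFP libraries became 1 list are not given in the sources used here. The deposited GFP lists hold positions alone, and whether their starts count from 0 or 1 is not stated, so those starts may be 1 base off. The deposited EoV5 and EoVP16 lists hold the authors' pileup signal at the summit (the height used here), fold enrichment (a ratio) and −log10 p and q values; the last 3 were not used. The authors cut each list at a minimum pileup, per the file names.

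Entries off the 21 main chromosomes and repeated entries were dropped (EoGFP 4 and 12, BraGFP 7 and 4, EoV5 7 and 46, EoVP16 6 and 26). Midpoints were counted with Python 3.11.15, pandas 2.3.3, NumPy 2.4.6 and SciPy 1.17.1 against RefSeq spans (GRCm38.p6). A coding gene's share "with at least" a density came from the same count over all 21887. Overlap meant at least 1 base. The counting code was tested on simulated data. Named genes were the 5, the most similar gene to each, coding genes nearer to a peak in their windows, and the 2 genes of each list with the most peaks, ties included. Outside this rule, Dsp and the miR-200 cluster on chromosome 4 were named after their values were seen. No p-value was computed, since each construct has 1 list. Alternatives were other windows, nearest gene, any overlap, stronger peaks, lists of equal size and repeated entries.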

Additional observations from a re-analysis of the deposited data

How the results depend on the processing

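No paired analysis was possible because each construct is represented by 1 peak list that carries no replicate number, and for the same reason no replicate could be left out. Counting any overlap with the window, or keeping repeated entries, left all 20 counts per gene and list within 1.5 times. Assigning peaks to the nearest coding gene moved 1 of 20. A 10 kb window lowered 7 of 20 by more than 1.5 times and a 100 kb window raised 4. The densities over the 5 genes stayed inside their Poisson intervals under all of these.

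Keeping the wider (GFP lists) or taller (EoV5, EoVP16) 50% of each list removes peaks by construction. It gave 1.21 EoGFP, 0.966 BraGFP and 2.05 EoVP16 peaks per 100 kb, with 3, 5 and 8 peaks inside the genes, and 4.00% of sites in all 4 lists. The EoV5 density, 1.81, stayed in its interval. With the 13000 widest peaks of each list the densities were 0.966 (EoGFP), 0.966 (BraGFP), 1.21 (EoV5) and 1.45 (EoVP16), and 3, 5, 7 and 4 peaks lay inside. In lists of equal length EoVP16 had 12 peaks against 8, 8 and 10, but it was below EoV5 inside the genes (4 against 7) and at Zeb2 (3 against 6), where the full lists had 18 against 12 and 18 against 11. The taller 50% also put Zeb2 at 7 EoVP16 against 10 EoV5 peaks. The cause was not tested. The shares of EoGFP peaks with BraGFP and of EoVP16 peaks with EoV5 stayed inside their Wilson intervals in every alternative run. Read depth is not known, so an absent peak is not shown to be absent binding.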
